A study of Populus tremula x Populus alba with 72 samples.

Results

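In growing leaves of a hybrid poplar kept in filtered air, 131 genes had a higher mean level on day 8 than on days 2 and 13. They were taken from 34699 listed genes, of which they make up 0.378%. Under equal library totals the conditions given next took 69 genes, all among the 131. They were chosen by group means of log2(normalized reads + 1), with 4 libraries a group. A gene needed a mean of at least 100 normalized reads in any of the study's groups, which 23307 genes had. In growing leaves in filtered air its day 8 level had to exceed the higher of its day 2 and day 13 levels by at least 0.7 on the log2 scale, a difference called its day 8 peak here, and 308 genes had such a peak. The levels of days 2 and 13 had to lie within 1.5 of each other, and in expanded leaves on day 13 the difference between 100 ppb ozone and filtered air had to stay under 1. The last condition alone removed 95 genes, the condition on days 2 and 13 alone removed 32, and both together removed 50.

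The plants were Populus tremula x Populus alba, all of clone INRAE 717-1B4, so no result here extends beyond a single genotype. Young trees stood in charcoal-filtered air with no ozone added (the control), with 80 ppb or with 100 ppb, and ozone was supplied during the daytime. Growing and expanded leaves were taken on days 2, 8 and 13, which gives 18 groups of 4 libraries and 72 libraries in all. The labels number the replicates without saying which tree, chamber or day a number marks, so the tests speak only of the spread among the libraries sequenced, which may be technical. The labels give the day of exposure and the leaf position but no leaf size, so that day 8 falls in the middle of expansion could not be checked. The deposited identifiers carry no names or products, so neither the leaf tissue nor the 131 genes could be set against known markers, and no function is given to any of them.

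A leaf first grows by cell division and then by expansion of its cells, while chloroplasts are built, walls and cuticle are laid down and the tissue turns from an importer of sugar into an exporter. Many genes are used for only part of that course, so their transcripts rise and fall again within a single leaf. Ozone enters through the stomata and forms reactive oxygen in the leaf, and it is known to hasten the ageing of older leaves. In RNA from whole leaves, fewer cells of a type and less RNA per cell cannot be told apart.

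The libraries held 23.2 M to 54.3 M reads in genes (median 39.4 M, where M is mega-reads), and all 131 genes were among the 27780 that reached 10 normalized reads in 4 or more libraries, the set that was tested. The 131 genes together took 1.88% ± 0.19 of the reads on day 2, 3.24% ± 0.20 on day 8 and 1.79% ± 0.13 on day 13 in growing control leaves (SD, n = 4). In growing leaves at 80 ppb the shares were 2.03% ± 0.17, 3.21% ± 0.15 and 1.76% ± 0.57 on the same days, and at 100 ppb they were 1.78% ± 0.53, 3.10% ± 0.14 and 1.47% ± 0.20. In expanded control leaves the share was already at 2.57% ± 0.20 on day 2, and it was 1.44% ± 0.36 on day 8 and 1.10% ± 0.55 on day 13. The plot of library medians shows how far the libraries of a group lay apart. At 100 ppb the day 8 medians of growing leaves lay between 0.89 and 0.97, whereas those of day 2 lay between -0.80 in replicate 2 and 0.24 in replicate 1. In expanded control leaves on day 13 the medians lay between -1.36 in replicate 2 and -0.01 in replicate 1.

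**Figure D1:**
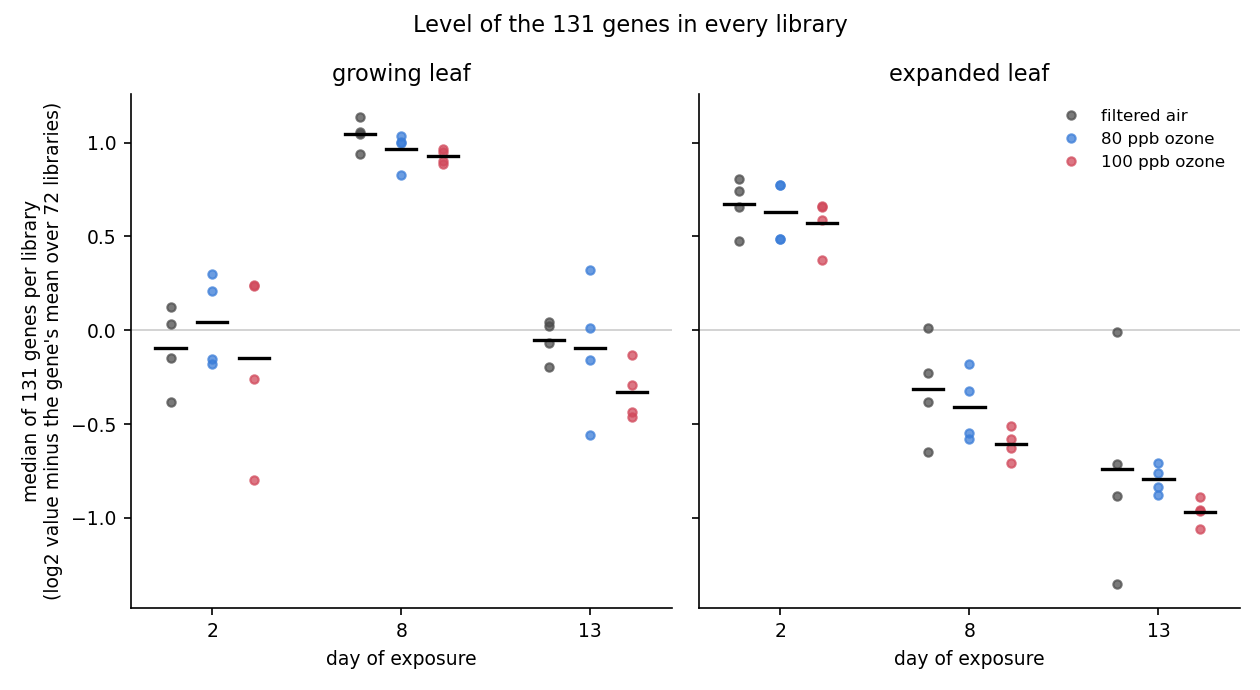
Each point is 1 library and gives the median over the 131 genes of the log2 value minus that gene's mean over all 72 libraries, by day (x axis), for growing leaves on the left and expanded leaves on the right, and short lines are means of 4 libraries. Growing leaves of day 8 lie between 0.83 and 1.14 in all 3 airs, and expanded leaves of day 2 between 0.37 and 0.81. The growing control libraries were used to choose the genes.

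In the growing control leaves themselves the peaks had a median of 0.88 and ranged between 0.70 and 4.66, which the rule fixed and which is given as a description. Between days 13 and 2, whose distance the rule also limited, 66 genes were higher and 65 lower on day 13. Among the 6 control groups the highest mean was that of growing leaves of day 8 in 111 genes (10.4% of all tested genes). It was that of expanded leaves of day 2 in 16 (7.71% of all tested genes), again as a description. In 120 of the 131 genes all 4 control libraries of day 8 lay above all 8 of days 2 and 13, which 4.22% of all tested genes did. That too is a description, since the means of these same libraries chose the genes. Just inside the limit lay Potri.014G141500, with group means of 3236, 8075 and 4954 normalized reads on days 2, 8 and 13, and Potri.013G026300, with 62.4, 162 and 102. Just outside lay Potri.013G074800 and Potri.006G036000, whose peaks of 0.698 and 0.697 were cut off by less than 0.01 on the log2 scale.

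The 10 genes with the largest peaks in control leaves were Potri.016G021200, Potri.001G462200, Potri.001G462300, Potri.011G125300, Potri.010G132300, Potri.007G139600, Potri.008G188300, Potri.001G454700, Potri.009G159700 and Potri.016G010600. Potri.001G462200 had 315, 214, 322 and 545 normalized reads in the control libraries of day 2, 1657, 1501, 1438 and 1860 in those of day 8, and 337, 529, 398 and 200 in those of day 13. Potri.009G159700 had 252, 183, 222 and 298 on day 2, 1304, 1106, 924 and 1329 on day 8, and 325, 443, 292 and 336 on day 13. In both genes every day 8 library lay well above every other control library. The first of the 10, Potri.016G021200, was of another kind: it was at 0 reads in all 4 control libraries of day 2, had 0, 210, 214 and 231 normalized reads on day 8, and had at most 12 on day 13. Its large peak therefore rests on 3 libraries with reads, beside 1 with none.

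The ozone libraries of growing leaves entered the choice only through the minimum mean of 100, which 121 of the 131 genes met in a growing control group and 10 only in other groups. At 80 ppb 95 of the 131 genes were higher on day 8 than on day 2 (limma, adjusted p under 0.05) and none was lower, where 25.9% of all tested genes were higher and 26.8% lower. From day 8 to day 13, 108 fell and none rose, against 21.6% and 21.7% of all tested genes. At 100 ppb 116 genes rose and 1 fell between days 2 and 8 (28.2% and 28.9% of all tested genes), and 106 fell and 2 rose between days 8 and 13 (27.4% and 30.4%). The median change between days 2 and 8 was 0.87 at 80 ppb and 1.06 at 100 ppb on the log2 scale, and between days 8 and 13 it was -1.05 and -1.26, with medians over all tested genes between -0.01 and 0.02. Among the 121 genes that met the minimum in growing controls, 91 were higher on day 8 than on day 2 at 80 ppb and 104 fell after it. At 100 ppb 109 of the 121 rose and 1 fell between days 2 and 8, and 102 fell and 1 rose between days 8 and 13.

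Day 8 was called above both other days in 85 genes at 80 ppb and in 99 at 100 ppb, where 2.07% and 4.42% of all tested genes met the same condition, and 82 and 95 of the 121 did. At both ozone levels 76 genes were called on both sides, 9 at 80 ppb alone, 23 at 100 ppb alone and 23 at neither. This split was made for the members only, without the share of all tested genes, and is a description. Without any test, the mean of day 8 exceeded the means of days 2 and 13 in 124 genes at 80 ppb and in 123 at 100 ppb, where 15.4% and 17.1% of all tested genes did so. The 4 libraries of day 8 lay above all 8 of the other days in 78 genes at 80 ppb (2.13% of all tested genes) and in 80 at 100 ppb (3.61%). The median peak was 0.77 at 80 ppb and 0.87 at 100 ppb, set beside 0.88 in the controls that chose the genes. A peak of at least 0.7 was found in 71 genes at 80 ppb and in 97 at 100 ppb, against 1.41% and 2.81% of all tested genes. Among the 121 genes the mean of day 8 was highest in 116 at 80 ppb and 117 at 100 ppb, all libraries of day 8 lay above the others in 75 and 79, and 66 and 93 had a peak of at least 0.7. Across the 131 genes the size of the peak at 80 ppb and at 100 ppb had a Spearman correlation of 0.79, given as a description, since the 2 sets share no library but genes are not independent replicates (0.84 over all 27780 tested genes).

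**Figure D2:**
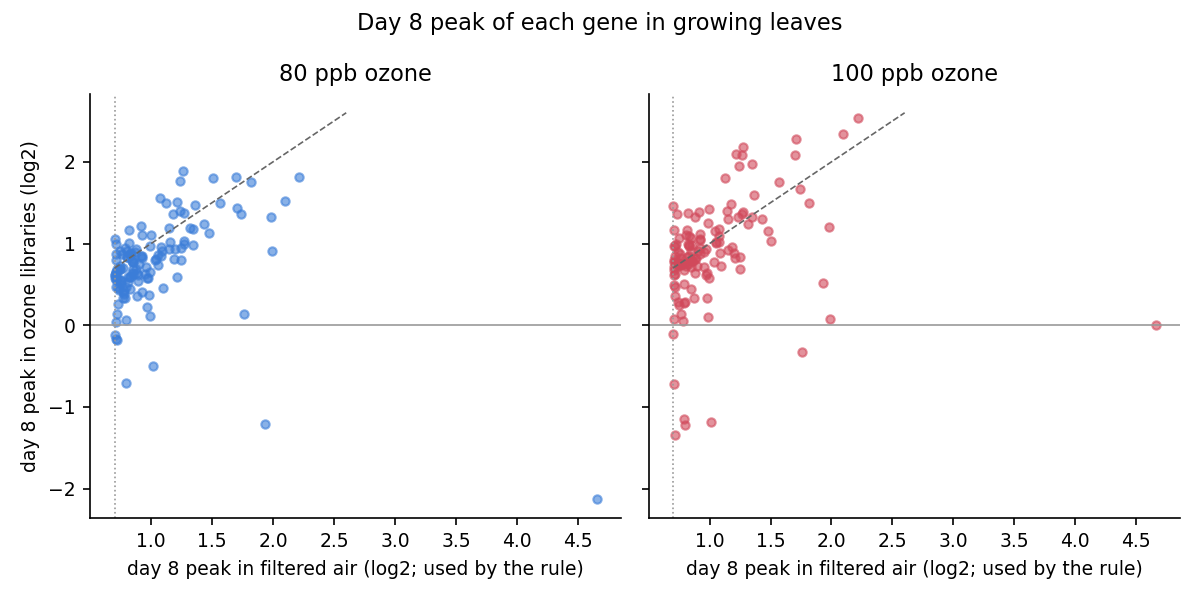
Each point is 1 of the 131 genes. The x axis is its day 8 peak in growing control leaves (log2, the value that chose it, with the limit of 0.7 dotted), the y axis the same quantity in growing leaves at 80 ppb (left) and 100 ppb (right), and the dashed line marks equal peaks. Above 0 lie 124 points at 80 ppb and 123 at 100 ppb, and Potri.016G021200, at 4.66 on the x axis, is not among them in either panel.

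Equal totals instead of the authors' scaling shifted the median of all tested genes by -0.15 between days 2 and 8 at 80 ppb and by 0.25 between days 8 and 13, and by -0.14 and 0.29 at 100 ppb. The members' medians were then 0.72 and -0.81 at 80 ppb, and 0.91 and -0.99 at 100 ppb. Relative to that shift they were 0.87 and -1.06 at 80 ppb, and 1.06 and -1.29 at 100 ppb. Equal totals move all genes of a library nearly alike. Values relative to the shift, here and below, therefore nearly repeat those under the authors' scaling and are no separate test. With equal totals 87 and 90 genes were called at 80 ppb. All 87 were higher on day 8 than on day 2 and all 90 lower on day 13 than on day 8, with 18.4% and 12.7% of all tested genes called in those directions. At 100 ppb 105 were then higher and 2 lower on day 8 than on day 2 (20.6% and 35.5% of all tested genes), and 96 were lower and 2 higher on day 13 than on day 8 (18.1% and 45.0%).

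Potri.010G132300 rose most between days 2 and 8 at 80 ppb, with 540, 545, 448 and 879 normalized reads on day 8, against 134, 45.1, 169 and 24.9 on day 2. The change was 3.01 ± 0.53 (log2 ± SE, adjusted p = 3.95e-06), and at 100 ppb it was 3.02 ± 0.53 (adjusted p = 2.99e-06). In neither air did the libraries of the 2 days overlap. Potri.014G132000 had 170, 159, 78.9 and 107 on day 8 at 80 ppb, against 50.3, 17.8, 31.0 and 9.74 on day 2, a change of 2.37 ± 0.50 (adjusted p = 6.66e-05). Potri.008G194100 had 16625, 13050, 18850 and 16856 normalized reads on day 8 at 100 ppb, against 4126, 118, 7865 and 1036 on day 2 (3.52 ± 0.61, adjusted p = 2.47e-06). Its day 2 libraries differed among themselves far more than those of day 8, and none reached them. Without replicate 2 of day 2 the change was 2.33, by edgeR 2.30 and by DESeq2 2.31, where Potri.010G132300 had 2.58, 2.49 and 2.53.

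The steepest falls after day 8 were those of Potri.001G173700. At 80 ppb it had 7.46, 9.86, 7.23 and 82.5 normalized reads on day 13, against 367, 149, 428 and 121 on day 8, a change of -3.87 ± 0.75 (adjusted p = 3.59e-05). At 100 ppb it had 19.3, 7.38, 6.11 and 26.0 on day 13, against 226, 166, 372 and 149 on day 8 (-4.00 ± 0.75, adjusted p = 9.31e-06). The days did not overlap at either ozone level, although replicate 4 of day 13 at 80 ppb lay far above the other 3. Potri.009G058200 had 99.5, 54.2, 51.6 and 149 on day 13 at 80 ppb, against 480, 449, 437 and 704 on day 8 (-2.64 ± 0.46, adjusted p = 4.93e-06). Potri.018G053720 had 38.7, 24.9, 19.9 and 39.9 on day 13 at 100 ppb, against 238, 219, 354 and 174 on day 8 (-2.96 ± 0.51, adjusted p = 1.64e-06). Both were lower in every day 13 library than in any of day 8.

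**Figure D3:**
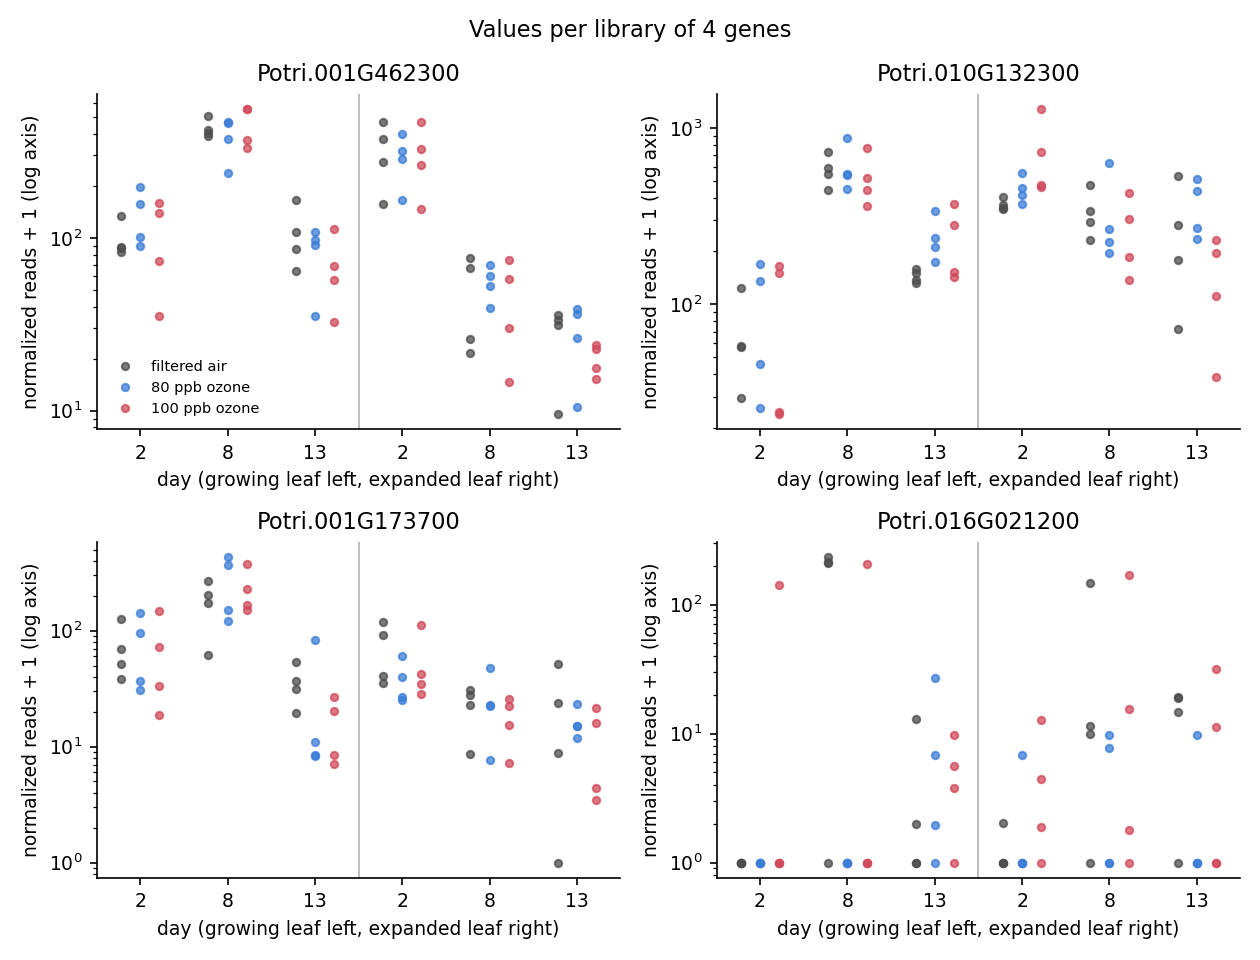
Normalized reads plus 1 (log axis) of 4 genes, 1 point a library, by day, for growing leaves (left of the line) and expanded leaves (right). Potri.001G462300, Potri.010G132300 and Potri.001G173700 have a mean on day 8 of growing leaves above those of days 2 and 13 in all 3 airs, while Potri.016G021200 lies at 0 reads in many libraries and above 100 normalized reads in 7.

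There were 10 genes that did not repeat the peak at one or both ozone levels: day 8 was not the highest day for 7 genes at 80 ppb, for 8 at 100 ppb and for 5 at both. They are Potri.016G021200, Potri.007G139600, Potri.001G454700, Potri.010G217700, Potri.011G108100, Potri.006G026500, Potri.001G326300, Potri.003G144100, Potri.008G137900 and Potri.013G026300, and 3 of them belong to the 10 with the largest control peaks. Potri.016G021200 was at 0 reads in all 8 growing-leaf libraries of days 2 and 8 at 80 ppb, where 3 reads would have been 2.78 to 4.37 normalized reads. At 100 ppb it had 141 normalized reads in 1 library of day 2 and 207 in 1 library of day 8, and 0 in the other 6. High and absent values thus alternated between libraries of the same group. Potri.007G139600 had 34.1, 1052, 151 and 550 on day 8 at 80 ppb, against 705, 455, 856 and 318 on day 2, a change of -1.21 ± 0.89 that did not pass the test (adjusted p = 0.255).

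Potri.011G108100 was counted as higher on day 13 than on day 8 at 100 ppb. It met the minimum mean only in growing and expanded leaves of day 13 at 100 ppb, so its values are a description: 76.5, 121, 134 and 105 normalized reads on day 13, against 66.4, 30.0, 41.5 and 50.6 on day 8. Potri.003G144100 was the other gene that rose after day 8 at 100 ppb, with a mean of 630 ± 273 on day 13, against 365 ± 79.2 on day 8 (SD, n = 4; 0.71 ± 0.28, adjusted p = 0.0254). Its call was lost in the model of the 8 compared libraries alone (0.062) and without replicate 3 of day 8 (0.102) or replicate 2 (0.177, with a change of 0.46) or 3 (0.073) of day 13, in a range of 0.00393 to 0.177. Potri.006G026500 was the gene that fell between days 2 and 8 at 100 ppb, with 103, 140, 95.9 and 134 on day 8, against 187, 145, 588 and 283 on day 2 (-1.15 ± 0.47, adjusted p = 0.0326). That last call was lost in 5 of 18 alternatives, with adjusted p between 0.0013 and 0.189: at a pseudocount of 0.25 and without replicate 3 (0.189, with a change of -0.75) or 4 (0.0621) of day 2 or replicate 1 (0.068) or 3 (0.0753) of day 8.

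In expanded leaves most of the 131 genes fell between days 2 and 8. In controls 89 fell and 2 rose, where 19.1% of all tested genes fell and 17.9% rose. At 80 ppb 90 fell and 2 rose (19.5% and 17.2% of all tested genes). Of the 121 genes that met the minimum in growing controls 86 and 88 fell and none rose. The median changes were -0.96 in controls and -1.01 at 80 ppb. With equal totals, which moved all tested genes by 0.27 and 0.28, they were -0.71 and -0.74, or -0.98 and -1.03 relative to that shift. Potri.001G462300 had 25.1, 75.0, 20.5 and 65.8 normalized reads on day 8 in expanded control leaves, against 464, 156, 372 and 275 on day 2 (-2.84 ± 0.47, adjusted p = 2.99e-06). Potri.018G053720 had 49.4, 29.0, 16.6 and 17.2 on day 8 in the same leaves, against 222, 125, 187 and 238 on day 2 (-2.84 ± 0.51, adjusted p = 1.35e-05), and at 80 ppb its change was -2.89 ± 0.51 (adjusted p = 1.27e-05). Potri.003G038500 had 3080, 6517, 8590 and 1917 on day 8 at 80 ppb, against 18763, 28069, 27945 and 36476 on day 2 (-2.67 ± 0.48, adjusted p = 1.76e-05). In none of these 3 genes did the days overlap.

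The 2 genes counted as higher on day 8 than on day 2 in expanded leaves were Potri.001G454700 and Potri.010G217700, in controls and at 80 ppb. They met the minimum mean only in expanded control leaves, Potri.001G454700 on days 8 and 13 and Potri.010G217700 on day 13, so their values are a description. Potri.001G454700 had 43.3, 124, 88.9 and 188 normalized reads on day 8 in controls, against 6.33, 2.29, 10.2 and 3.74 on day 2. Potri.010G217700 had 22.5, 69.0, 63.3 and 65.8 on day 8 in controls, against 1.06, 5.72, 9.22 and 0 on day 2. Both are among the genes that did not repeat the peak at one or both ozone levels, and in growing leaves Potri.001G454700 had at most 49.3 normalized reads in any library and Potri.010G217700 at most 16.6.

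Between days 8 and 13 at 80 ppb, 17 of the 131 fell further in expanded leaves and 1 rose, where 6.53% and 2.81% of all tested genes did, and the median change was -0.38. Without replicate 2 of day 8 or replicate 2 of day 13 the count of changed genes was 6, without replicate 3 of day 13 it was 10, and in a model of these 8 libraries alone it was 34. Potri.001G134000 had 3941, 3953, 4753 and 5489 on day 13, against 11637, 15009, 10939 and 9102 on day 8 (-1.35 ± 0.32, adjusted p = 0.00404), with no overlap. Potri.011G165000 had 1566, 1028, 1266 and 2494 on day 13, against 3096, 4982, 3225 and 2902 on day 8 (-1.21 ± 0.40, adjusted p = 0.0426). The rising gene was Potri.005G129700, with 670, 888, 901 and 738 on day 13, against 626, 491, 623 and 478 on day 8 (0.53 ± 0.16, adjusted p = 0.0271). Neither group pair overlapped, but the call of Potri.011G165000 was lost in 8 of 18 alternatives (adjusted p between 0.0169 and 0.188), 6 of them single libraries left out, replicates 1, 2 and 3 of each day. That of Potri.005G129700 was lost without replicate 2 (0.109) or 4 (0.0774) of day 8 or replicate 2 (0.121) or 3 (0.095) of day 13, over a range of 0.00168 to 0.121.

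The opposite courses met the test of their difference. At 80 ppb the change between days 2 and 8 was higher in growing than in expanded leaves for 115 of the 131 genes and lower for none, where 20.5% of all tested genes were higher and 19.1% lower. Of the 121 genes that met the minimum in growing controls it was higher for 109. The median difference of the changes was 2.07. With equal totals it was 1.66, or 2.08 relative to the shift of -0.42 that they gave all tested genes. Potri.016G010600 met the minimum only on day 8 of growing leaves at 80 ppb, so its values are a description. It had 115, 91.8, 94.6 and 105 normalized reads on day 8 in growing leaves at 80 ppb, against 53.4, 20.5, 58.1 and 29.2 on day 2, and in expanded leaves 3.86, 0.923, 5.55 and 2.20 on day 8, against 20.5, 36.4, 36.8 and 54.7 on day 2. Potri.003G038500 had a difference of the changes of 4.57 ± 0.67 (adjusted p = 3.49e-07). It had 32320, 39648, 18706 and 41374 on day 8 in growing leaves, against 7820, 8350, 10719 and 7135 on day 2. For Potri.003G038500 the rise in growing leaves and the fall in expanded leaves were free of overlap between the days.

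Set side by side on the same day at 80 ppb, the order of the leaf positions turned between days 2 and 8. On day 2, 58 of the 131 genes were lower in growing than in expanded leaves and 1 was higher, where 31.1% of all tested genes were lower and 32.6% higher. On day 8, 112 were higher in growing leaves and 1 was lower (25.4% and 24.8% of all tested genes), and on day 13, 65 were higher and 2 lower (18.1% and 13.9%). Of the 121 that met the minimum in growing controls, 54 were lower and 1 higher on day 2, 109 higher on day 8 and none lower, and 63 higher and 2 lower on day 13. The medians of growing minus expanded were -0.51, 1.35 and 0.72 on days 2, 8 and 13. Equal totals moved all tested genes by -0.38 on day 8 and by -0.27 on day 13. They left 94 higher and 2 lower on day 8 (15.0% and 47.7% of all tested genes), and 53 higher and 8 lower on day 13 (11.0% and 36.9%). The medians were then 0.99 on day 8 and 0.45 on day 13, or 1.36 and 0.72 relative to the shift.

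On day 2 at 80 ppb Potri.014G132000 had 50.3, 17.8, 31.0 and 9.74 normalized reads in growing leaves, against 387, 108, 206 and 146 in expanded leaves (-2.98 ± 0.50, adjusted p = 6.46e-07). Potri.010G132300 had 134, 45.1, 169 and 24.9 in growing leaves, against 413, 452, 369 and 553 in expanded leaves (-2.61 ± 0.53, adjusted p = 2.55e-05). Both were thus lower in every growing-leaf library. The gene that was higher in growing leaves was Potri.006G026500, with 283, 190, 296 and 126, against 79.1, 113, 105 and 83.1 in expanded leaves (1.16 ± 0.47, adjusted p = 0.0273). Its call was lost at a pseudocount of 0.25 (0.0694) and without replicate 1 (0.0763) or 3 (0.0822) of growing leaves or replicate 1 (0.062) or 4 (0.0569) of expanded leaves, and adjusted p over its 18 alternatives was 0.00224 to 0.0822.

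On day 8 at 80 ppb Potri.016G010600 had 115, 91.8, 94.6 and 105 in growing leaves, against 3.86, 0.923, 5.55 and 2.20 in expanded leaves, given without a test for the reason above. Potri.006G026500 had 85.2, 265, 105 and 118 in growing leaves, against 13.5, 13.9, 9.99 and 4.39 in expanded leaves (3.62 ± 0.47, adjusted p = 4.97e-09). The groups of Potri.006G026500 did not come near to overlap. The gene that was lower in growing leaves was Potri.010G217700, at 5.44 ± 3.26 normalized reads, against 33.6 ± 27.8 in expanded leaves (SD, n = 4), which is a description too, since it met the minimum only in expanded leaves.

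On day 13 at 80 ppb Potri.003G038500 had 11193, 6826, 7270 and 27033 in growing leaves, against 3076, 1213, 1467 and 2548 in expanded leaves (2.52 ± 0.48, adjusted p = 5.13e-05). Potri.001G340200 had 234, 163, 106 and 167 in growing leaves, against 28.9, 29.3, 25.1 and 31.0 in expanded leaves (2.46 ± 0.25, adjusted p = 2.59e-11). In these 2 genes growing leaves remained above expanded leaves in every library. The 2 genes that were lower in growing leaves were Potri.003G060300, with 26.5, 65.1, 25.8 and 63.3, against 362, 566, 267 and 85.7 in expanded leaves (-2.64 ± 0.60, adjusted p = 0.000653), and Potri.003G101200, with 254 ± 35.9, against 361 ± 79.2 (SD, n = 4; -0.49 ± 0.16, adjusted p = 0.0133). With equal totals the difference of Potri.003G101200 was -0.75. The call of Potri.003G101200 was lost in the model of the 8 libraries alone (0.0638) and without replicate 1 of growing (0.0539) or replicate 2 of expanded leaves (0.1), in a range of 0.000153 to 0.1.

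**Figure D4:**
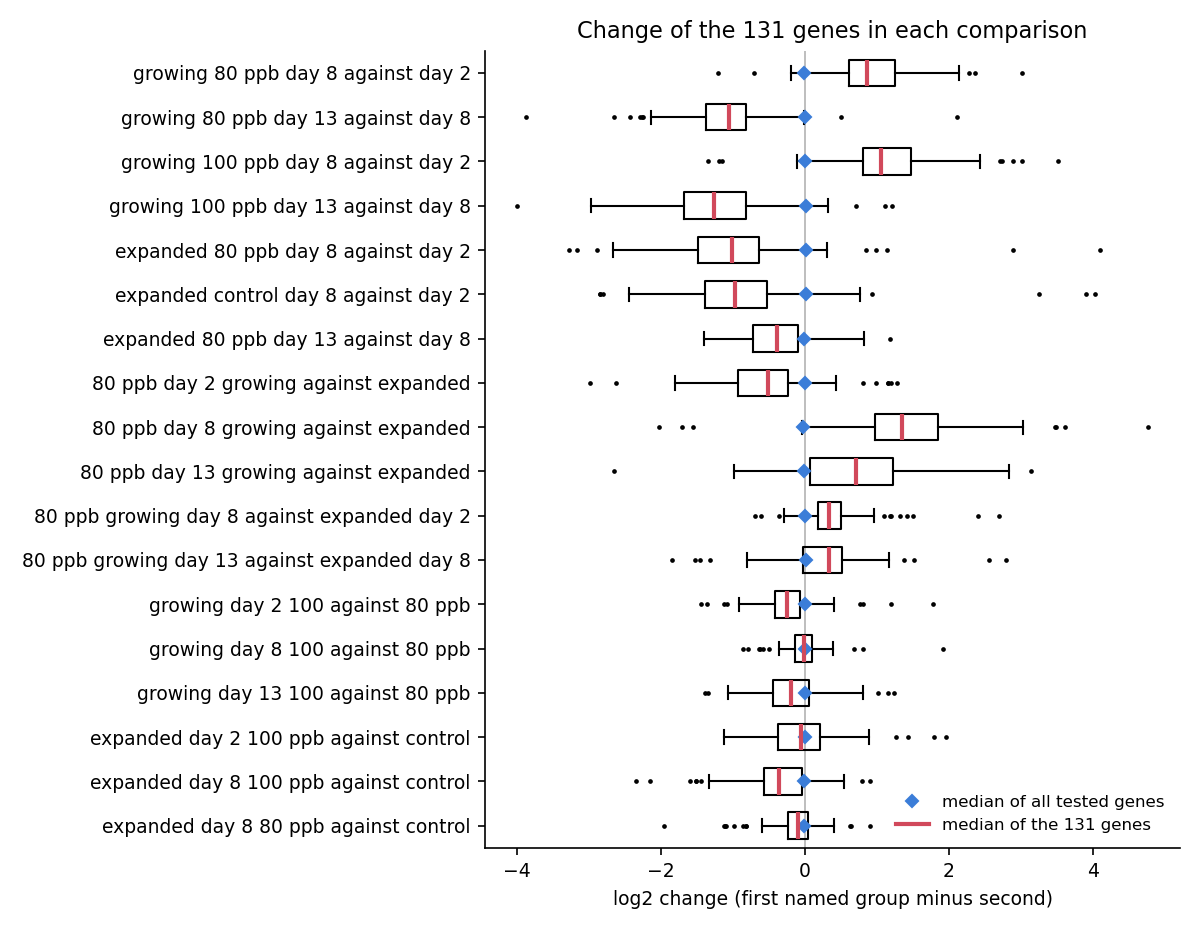
Boxes give the log2 changes of the 131 genes in each comparison (first named group minus second; box, quartiles; red line, median; whiskers, 1.5 times the box; dots, single genes beyond), and blue diamonds the median of all tested genes. The members' medians are 0.87 and 1.06 for day 8 against day 2 in growing leaves at 80 and 100 ppb, and -1.01 and -0.96 in expanded leaves at 80 ppb and in controls. Those of 100 against 80 ppb in growing leaves lie between -0.25 and 0.00.

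Over the 6 combinations of leaf position and day at 80 ppb, day 8 of growing leaves held the highest mean in 108 of the 131 genes, or 82.4%, where it did so in 8.93% of all tested genes. Day 2 of expanded leaves held it in 12 genes, or 9.16%, against 9.52% of all tested genes. The lowest mean fell on day 13 of expanded leaves in 88 genes, or 67.2% (27.1% of all tested genes). It fell on day 2 of growing leaves in 22, or 16.8%, less often than in all tested genes (36.1%). At 100 ppb day 8 of growing leaves was highest in 106 genes (11.9% of all tested genes). Day 13 of expanded leaves at 100 ppb, a group the rule used, was lowest in 78 (29.3% of all tested genes). The mean of the library medians at 80 ppb was 0.04, 0.97 and -0.09 on days 2, 8 and 13 in growing leaves, and 0.63, -0.41 and -0.79 on the same days in expanded leaves.

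Growing leaves of day 8 and expanded leaves of day 2 were thus neighbours at the top of the order at 80 ppb. They differed in 7 of the 131 genes, or 5.34%, where 10.8% of all tested genes differed. All 7 were higher in growing leaves (5.40% of all tested genes were higher and 5.43% lower), and the median difference was 0.34. DESeq2 called 11, 10 higher and 1 lower, and a model of these 8 libraries alone called 27. These counts come without the share of all tested genes under the same setting, so they cannot be set against the 10.8%. Potri.001G173700 had 367, 149, 428 and 121 normalized reads in growing leaves of day 8, against 24.4, 25.8, 38.8 and 58.9 in expanded leaves of day 2 (2.70 ± 0.75, adjusted p = 0.0142). Potri.004G086500 had 11271, 14441, 12434 and 7800 in growing leaves of day 8, against 3270, 5866, 3811 and 5470 in expanded leaves of day 2 (1.33 ± 0.33, adjusted p = 0.00688). Neither gene's groups overlapped. For Potri.001G173700 the call was lost without replicate 1 (0.052) or 3 (0.0612) of growing leaves or replicate 1 of expanded leaves (0.0543), in a range of 0.00168 to 0.0612.

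Growing leaves of day 13 and expanded leaves of day 8 differed in 4 of the 131 genes, all higher in growing leaves (0.99% of all tested genes). The median difference was 0.34, and under equal totals it was 0.23, or 0.33 relative to the shift of -0.10. Without replicate 1 of either group the count was 2, without replicate 3 of growing leaves it was 7, and in a model of these 8 libraries alone it was 0. The 4 genes were Potri.006G026500 (2.56 ± 0.47, adjusted p = 0.000698), Potri.013G026300 (1.52 ± 0.31, adjusted p = 0.00345), Potri.001G340200 and Potri.008G204100, and all 4 had met the minimum in growing controls. The first 2 calls were lost in the model of the 8 libraries alone (0.0517 and 0.0751; ranges 7.47e-06 to 0.0517 and 0.000406 to 0.0751). Potri.001G340200 had 234, 163, 106 and 167 normalized reads in growing leaves of day 13, against 57.9, 101, 67.7 and 81.3 in expanded leaves of day 8 (1.09 ± 0.25, adjusted p = 0.00904). Its call was lost in the model of the 8 libraries alone (0.109) and without replicate 1 of growing (0.133) or of expanded leaves (0.0663), in a range of 0.00153 to 0.133. Potri.008G204100 had 1031, 650, 607 and 795 in growing leaves of day 13, against 393, 350, 393 and 228 in expanded leaves of day 8 (1.17 ± 0.32, adjusted p = 0.0427). That call was lost in 10 of 18 alternatives (adjusted p between 0.0188 and 0.265), 7 of them without a single library: replicate 1, 2 or 4 of growing leaves or any of the 4 of expanded leaves. Across the 131 genes the fall after day 8 in growing leaves and the fall after day 2 in expanded leaves at 80 ppb had a Spearman correlation of 0.60 (0.69 over all tested genes), a description across genes from 4 groups with no library in common.

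Between the ozone levels no difference of the 131 genes in growing leaves passed limma's test on days 2 and 8. On day 8 limma called no gene between 100 and 80 ppb, among the members or among all 27780 tested genes (0.00%), edgeR none and DESeq2 1 of the members, and 1 member had an unadjusted p under 0.05. On day 2 limma and edgeR called none of the members (0.00% of all tested genes by limma) and DESeq2 1, 10 members had an unadjusted p under 0.05, and without replicate 1 of 100 ppb limma called 2. The median differences were -0.25 on day 2 and 0.00 on day 8. For the change between days 8 and 13, 100 minus 80 ppb, limma and edgeR called no member (0.00% of all tested genes by limma), DESeq2 called 1, 7 had an unadjusted p under 0.05 and the median difference was -0.18. Without replicate 1 of day 13 at 100 ppb limma called 1.

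On day 13 in growing leaves 10 of the 131 genes, or 7.63%, differed between 100 and 80 ppb, 2 higher and 8 lower at 100 ppb. Of all tested genes 14.9% differed, 11.0% higher and 3.92% lower, against 1.53% higher and 6.11% lower among the members. The rule had kept only genes whose difference between 100 ppb and filtered air stayed under 1 in expanded leaves of day 13. The members' share of changed genes is therefore a description. Of the 121 that met the minimum in growing controls 1 was higher and 8 were lower. The median difference was -0.19, and equal totals gave 5 higher and 6 lower (13.4% and 2.7% of all tested genes). The count moved with single libraries: it was 5, 5, 18 and 3 without replicates 1 to 4 of 80 ppb and 20, 5, 2 and 6 without replicates 1 to 4 of 100 ppb, and a model of these 8 libraries alone called 0 while DESeq2 called 16. Potri.008G204100 had 514, 249, 216 and 285 normalized reads at 100 ppb, against 1031, 650, 607 and 795 at 80 ppb (-1.34 ± 0.32, adjusted p = 0.00419). Potri.001G340200 had 91.5, 97.8, 80.2 and 80.8 at 100 ppb, against 234, 163, 106 and 167 at 80 ppb (-0.88 ± 0.25, adjusted p = 0.0124). Potri.011G108100 had 76.5, 121, 134 and 105 at 100 ppb, against 64.7, 30.6, 36.1 and 54.7 at 80 ppb, a description for the reason given above. Of these, Potri.008G204100 and Potri.001G340200, both lower at 100 ppb, did not overlap between the ozone levels. The other higher gene was Potri.003G144100 (0.81 ± 0.28, adjusted p = 0.0407), whose call was lost in the model of the 8 libraries alone (0.198) and without replicate 2 (0.248) or 3 (0.15) of 100 ppb or replicate 2 (0.138) or 4 (0.224) of 80 ppb, in a range of 0.00708 to 0.248. In the model of the 8 libraries alone the calls of Potri.008G204100 and Potri.001G340200 were lost, each at adjusted p = 0.0968. Potri.001G340200 was also lost without replicate 3 of 100 ppb (0.0623) or replicate 1 of 80 ppb (0.0742; range 0.00272 to 0.0968), while Potri.008G204100 ranged from 0.000326 to 0.0968.

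Against filtered air, ozone in growing leaves is given as a description only, because those controls chose the genes. The median of 100 ppb minus control was -0.09, -0.08 and -0.28 on days 2, 8 and 13, and that of 80 ppb minus control was 0.18, -0.06 and -0.09. Medians over all tested genes lay between -0.01 and 0.00. At 100 ppb the genes above and below their control mean were 48 and 83 on day 2, 43 and 88 on day 8, and 41 and 90 on day 13. At 80 ppb they were 106 and 24, 52 and 79, and 55 and 76 on the same days.

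In expanded leaves the controls of days 2 and 8 entered the choice only through the minimum mean, and ozone was set against them in 3 comparisons (80 ppb against control on day 2 was not run). The rule had, however, kept only genes whose difference between 100 ppb and filtered air stayed under 1 in these leaves on day 13. The members' shares of changed genes at 100 ppb are therefore a description. On day 8 at 80 ppb none differed from the control by limma, edgeR or DESeq2 (0.018% of all tested genes by limma), and 5 had an unadjusted p under 0.05. On day 8 at 100 ppb 14 differed, 3 higher and 11 lower, where 19.7% of all tested genes differed, 11.2% higher and 8.51% lower, and the median difference was -0.35. The count was 7 without replicate 1 or 2 of the controls, 6 without replicate 1 and 9 without replicate 4 of 100 ppb, and 7 in a model of these 8 libraries alone. On day 2 at 100 ppb 4 genes differed, 1 higher and 3 lower, where 4.74% of all tested genes were higher and 3.60% lower, and the median difference was -0.04. That count was 2 without replicate 2 and 12 without replicate 4 of 100 ppb, and 1 in a model of these 8 libraries alone. With equal totals 2 were higher and 3 lower (6.33% and 1.47% of all tested genes).

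The gene that was higher at 100 ppb on both of these days was Potri.003G139300. On day 2 it had 1513, 2492, 1162 and 921 normalized reads at 100 ppb, against 404, 371, 421 and 434 in controls (1.80 ± 0.28, adjusted p = 5.63e-05). On day 8 it had 1135, 927, 759 and 877 at 100 ppb, against 450, 558, 375 and 599 in controls (0.91 ± 0.28, adjusted p = 0.0177). All ozone libraries lay above all control libraries on both days, and the day 8 call was lost without replicate 1 of 100 ppb (0.075) or replicate 3 of the controls (0.0617; range 0.00889 to 0.075). The other 2 higher genes of day 8 were Potri.003G144100, with 654, 320, 306 and 494 at 100 ppb, against 234, 228, 284 and 230 in controls (0.79 ± 0.28, adjusted p = 0.0367), and Potri.005G069600 (0.38 ± 0.13, adjusted p = 0.0245). The call of Potri.005G069600 was lost in the model of the 8 libraries alone (0.0687) and without replicate 1 (0.0842) or 4 (0.118) of 100 ppb or replicate 1 (0.0525) or 3 (0.085) of the controls, in a range of 0.0118 to 0.118. For Potri.003G144100 the call was lost in 6 of 18 alternatives (0.015 to 0.199): in the model of the 8 libraries alone (0.0721), and without replicate 1 (0.0782), 2 (0.0863) or 4 (0.0698) of the controls or replicate 1 (0.199) or 4 (0.128) of 100 ppb.

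Among the lower genes of day 8, Potri.005G051001 had 29.0, 37.4, 45.8 and 32.5 normalized reads at 100 ppb, against 152, 78.0, 101 and 77.1 in controls (-1.43 ± 0.32, adjusted p = 0.00145). Potri.015G061400 had 118, 120, 64.4 and 97.4 at 100 ppb, against 178, 287, 217 and 164 in controls (-1.08 ± 0.25, adjusted p = 0.00216). Both were free of overlap. On day 2 the 3 lower genes were Potri.005G129700, with 839 ± 230 at 100 ppb, against 1484 ± 206 in controls (SD, n = 4; -0.86 ± 0.16, adjusted p = 0.000527, but 0.0926 in the model of the 8 libraries alone; range 3.62e-05 to 0.0926), Potri.004G144800 and Potri.008G204100. Potri.004G144800 had 331, 119, 248 and 291 at 100 ppb, against 474, 469, 560 and 433 in controls (-1.06 ± 0.24, adjusted p = 0.00414), and its call was lost without replicate 2 of 100 ppb (0.0584) and in the model of the 8 libraries alone (0.108; range 0.00129 to 0.108). Potri.008G204100 had 616, 359, 1059 and 1105 at 100 ppb, against 1487, 1202, 1954 and 1650 in controls (-1.12 ± 0.32, adjusted p = 0.0202). Its call was lost in the model of the 8 libraries alone (0.121) and without replicate 1 (0.0935) or 2 (0.16) of 100 ppb or replicate 3 (0.0681) or 4 (0.0658) of the controls (range 0.00501 to 0.16).

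Some members have neighbouring identifiers. Counting only members next to each other in order, 14 of the 131 form 8 pairs within 1000 in the number at the end of the identifier. Over the 72 libraries the log2 values of Potri.001G462200 and Potri.001G462300 had a Pearson correlation of 0.97, and those of Potri.001G340200 and Potri.001G340300 one of 0.98. Other pairs ran together less closely. The correlation was 0.87 for Potri.008G187400 and Potri.008G188300, and 0.76 for Potri.001G462300 and Potri.001G462600. It was 0.56 for Potri.007G056900 and Potri.007G057200, and 0.47 for Potri.001G306300 and Potri.001G307300. Potri.001G040884 had a correlation of 0.93 with Potri.001G040000 and of 0.94 with Potri.001G041012, and these 3 genes had peaks of 1.03, 0.99 and 1.20 at 80 ppb in the order Potri.001G040000, Potri.001G040884 and Potri.001G041012. The correlations are descriptions over libraries that fall into groups. Whether such pairs are near-identical copies between which reads could be split was not assessed. All counts above take each of these genes singly, so they are not counts of independent genes.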

How the data were processed

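The authors deposited a table of normalized counts, a signal per gene for 72 libraries of stranded, poly(A)-selected RNA read in pairs, per the labels' protocols. TopHat2 2.12, featureCounts, Subread 1.6.1 and DESeq2 1.24.0 are named in the submitters' processing notes, without roles. No source used here names the genome build. In every library 100% of the values were whole multiples of 1 step (within 0.01 reads), so whole reads were recovered for the edgeR 4.0.16 and DESeq2 1.42.0 tests. For day 8 against day 2 in growing leaves at 100 ppb, edgeR called 15737 genes, DESeq2 16001 and limma 15863.

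Genes that reached 10 in 4 or more libraries (27780) were tested by limma 3.58.1 in R 4.3.3 on log2(value + 1), with a mean for each of 18 groups, trended eBayes and Benjamini-Hochberg adjustment over all genes of a contrast (two-sided, 0.05). Fold changes on this scale understate low genes. The 131 members and the comparisons were chosen with earlier results of these data known, and 4 comparisons across leaf ages or positions were added after seeing the data. Named genes are the 10 largest control peaks, those at the limit and, per comparison, up to 2 rising and 2 falling genes of largest change with a mean of at least 100 and no overlap between groups. Others, where counts were 5 or fewer or a peak was missing, were chosen after their values were seen. Product lists and the marker check of the tissue were not made, for want of names. The test was checked on simulated counts for day 8 against day 2 in growing leaves at 80 ppb. Of 100 genes raised 2-fold it recovered 80%, and of 100 raised 4-fold 98%. It also called 19 genes that had not been changed, with 27368 genes run.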

Additional observations from a re-analysis of the deposited data

Results flagged for a closer look

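Groups of 4 libraries were examined for a library far from the other 3, by Dixon's ratio of its gap to the whole range. The 124 groups of values were the members' library medians in each of the 18 groups and values of named genes. For the genes the ratio was taken on log2(value + 1), while normalized reads are printed below. Chance alone gives about 1 in 20 such groups at the 95% level, and 6 of 124 (4.84%) were found here, all of them in values of named genes. Potri.016G021200 had a ratio of 0.982 on day 8 in growing control leaves, where 1 library was at 0 reads and the others had 210, 214 and 231 normalized reads. In the same control leaves Potri.001G462300 had a ratio of 0.85 on day 2 (88.0, 81.7, 85.8 and 134), Potri.007G139600 one of 0.942 on day 13 (225, 224, 211 and 78.8) and Potri.016G010600 one of 0.852 on day 13 (24.6, 0, 15.2 and 25.2). Potri.001G173700 had a ratio of 0.88 on day 13 in growing leaves at 80 ppb (7.46, 9.86, 7.23 and 82.5). Potri.003G144100 had a ratio of 0.885 on day 8 in expanded control leaves (234, 228, 284 and 230).

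The change between days 2 and 8 at 80 ppb differed between growing and expanded leaves in 115 of the 131 genes, by the test of the difference itself. In all 115 it was higher in growing leaves, where 20.5% of all tested genes were higher and 19.1% lower.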

How the results depend on the processing

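Of 200 counts of members under other settings 11 moved by over 1.5 times, and of 176 with a library left out 22 did. No call of the 53 pairs of a named gene and a comparison reversed in 970 alternatives, and 84 were lost. In growing leaves on day 13, 100 against 80 ppb called 10, but 0 in a model of the compared libraries alone, 16 by DESeq2 and 2 to 20 with a library left out. On day 2, day 8 and for the change between days 8 and 13 the counts of 0 became 1 each by DESeq2, with ranges of 0 to 2, 0 to 0 and 0 to 1 with a library left out. In the model of the compared libraries alone, expanded leaves gave 34 between days 13 and 8 at 80 ppb (6 to 18 with a library left out), 1 for 100 ppb against control on day 2 (2 to 12) and 7 on day 8 (6 to 17). Growing day 8 against expanded day 2 gave 27 in that model and 11 by DESeq2 (5 to 10), and growing day 13 against expanded day 8 gave 0 (2 to 7). These are counts of members alone, given without the share of all tested genes under the same setting. The cause of these moves was not tested. The rule took 69 genes with equal totals, all among the 131, 131 with TMM scaling (130 shared), 144 at a pseudocount of 8 (119 shared) and 112 to 144 with a library left out. In no comparison did all same-numbered pairs of libraries correlate above 0.1 (correlations between -0.27 and 0.48), so no pairing was established, although all were positive in 2 comparisons, reaching 0.35 for 100 against 80 ppb on day 2 of growing leaves. With a replicate block the counts were 94 and 108 at 80 ppb and 118 and 108 at 100 ppb in growing leaves, and 10 for 100 against 80 ppb on day 13. It changed no call of those 53 pairs. Limiting the counts to the 121 genes that met the minimum mean in growing controls, an alternative added after seeing the data, moved none by over 1.5 times.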
